A study of Mus musculus with 11 samples.

Results

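Glycinergic amacrine cells of the mouse retina at postnatal day 10 (P10) were taken from a single-cell table of 11 retinal samples by the genes that each cell carried. A cell was counted as a member when it had more than 300 detected genes, at least 1 UMI (unique molecular identifier, 1 captured RNA molecule) of Slc6a9, at least 1 UMI of any of Tfap2a, Tfap2b, Pax6, Neurod2 and Lamp5, no UMI of Gad1 or Gad2, and a UMI of at most 1 of Ebf3, Ppp1r17, Nhlh2, Prdm13, Crabp1 and Lgr5. The rule gave 552 members among 20033 cells, 2.76% of all cells with more than 300 genes. It used measured values, so the levels of these genes in the members describe the choice and were not tested.

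Retinas came from C57BL/6J mice at P10, with the anterior segment and pigment epithelium removed, and were dissociated with papain before inDrop droplet capture. The groups were PBS-treated controls in normal condition (n = 3), mice made hyperglycemic with streptozotocin (STZ, n = 3), and STZ-treated mice nursed by dams on an omega3-enriched (n = 2) or omega6-enriched (n = 3) diet. Control and STZ mice were littermates, and the pups of both diet groups were littermates divided between the cages of 2 dams, so diet and dam cannot be told apart. STZ kills pancreatic beta cells, and the study uses the resulting hyperglycemia of the pups as a model of the early phase of retinopathy of prematurity (Phase I ROP). In describing this model, the paper states that litters given STZ were kept smaller than litters without STZ, for equal weight gain. Whether litter size differed between the control and STZ mice used here is not stated. The diet groups differ in long-chain polyunsaturated fatty acids (LCPUFA), ω-3 against ω-6, and no normoglycemic mouse was fed either diet in this series. Each retinal sample is treated here as 1 mouse.

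Amacrine cells are inhibitory interneurons of the inner retina, and nearly all of them release either glycine or GABA. Glycinergic amacrine cells mostly have narrow arbors that span several sublayers of the inner plexiform layer, and they recover glycine through the transporter GlyT1, the product of Slc6a9. The best known of them, the AII cell, receives rod bipolar input, passes it to ON cone bipolar cells through gap junctions built of connexin 36 (Gjd2), and inhibits OFF pathways with glycine.

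The members numbered 24, 30 and 19 in the 3 control mice, 60, 32 and 44 in the STZ mice, 69 and 62 in the ω-3 mice, and 66, 85 and 61 in the ω-6 mice. Summed over the members, a control mouse had 63284 to 103943 UMIs, an STZ mouse 113097 to 160431, the ω-3 mice 272645 and 279650, and an ω-6 mouse 186893 to 405500, so the diet groups were the more deeply measured. The median member held 3374 UMIs, with a range of 2338 to 5573 between mice. Of 18872 cell barcodes, 1157 occurred in 2 or more mice, and 64 members carried one of these, but no barcode was carried by 2 members. Scrublet, a doublet caller, marked 72 cells (0.359%), 5 of them members, and these few calls were not used.

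**Figure D1:**
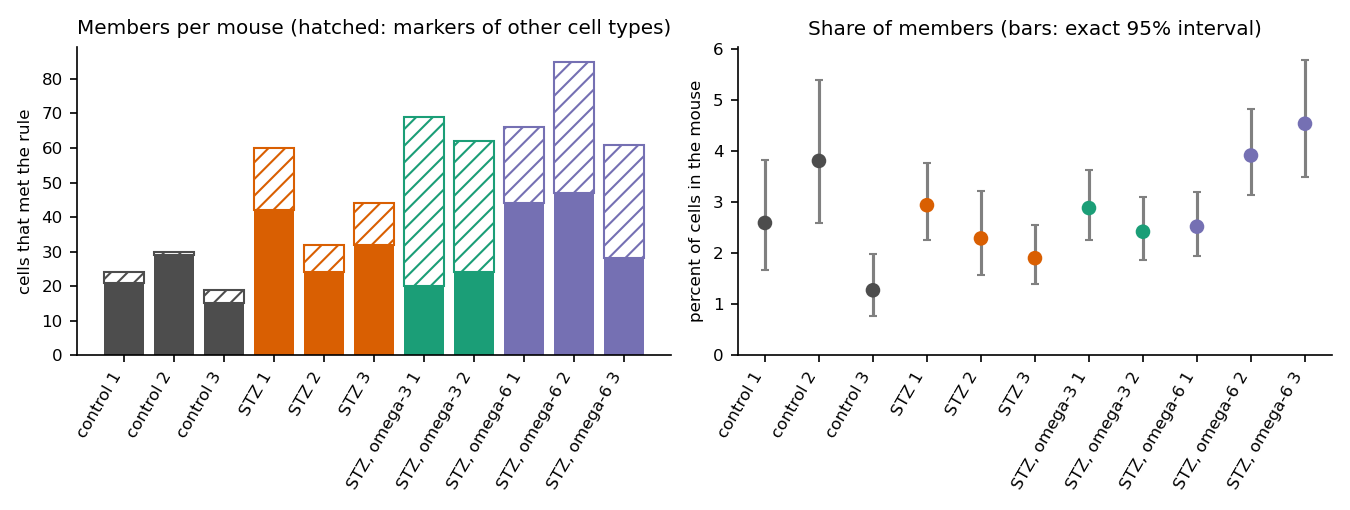
Glycinergic amacrine cells in each of the 11 mice. The bars give the number of members, hatched for those that also carried markers of rods, bipolar cells or Müller glia, and the points their share of all cells in percent with exact 95% binomial intervals. The share ranged from 1.27% to 4.54% and the groups overlapped, while members with foreign markers were few in control mice and the majority in both ω-3 mice.

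Of the amacrine genes of the rule, of which each member had to carry at least 1, Lamp5 was detected in 64.7% of the members, Pax6 in 63.9%, Tfap2b in 61.8%, Tfap2a in 43.1% and Neurod2, a transcription factor of glycinergic amacrine subtypes, in 42.4%. Slc6a9 itself (chr4:117834506-117875198, plus strand, GRCm38) was at 1 UMI in 260 members (47.1%), at 2 UMIs in 83, at 3 in 55 and at 4 or more in 154. The members at either end of this range were unlike each other. Lamp5 was found in 41.9% of the members with 1 Slc6a9 UMI and in 95.5% of those with 4 or more, Gjd2 in 15% and 83.8%, and Prox1 in 20% and 81.8%. Sag, a rod arrestin, went the other way, from 44.6% to 19.5%, although the median depth rose from 2675 to 4531 UMIs.

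**Figure D2:**
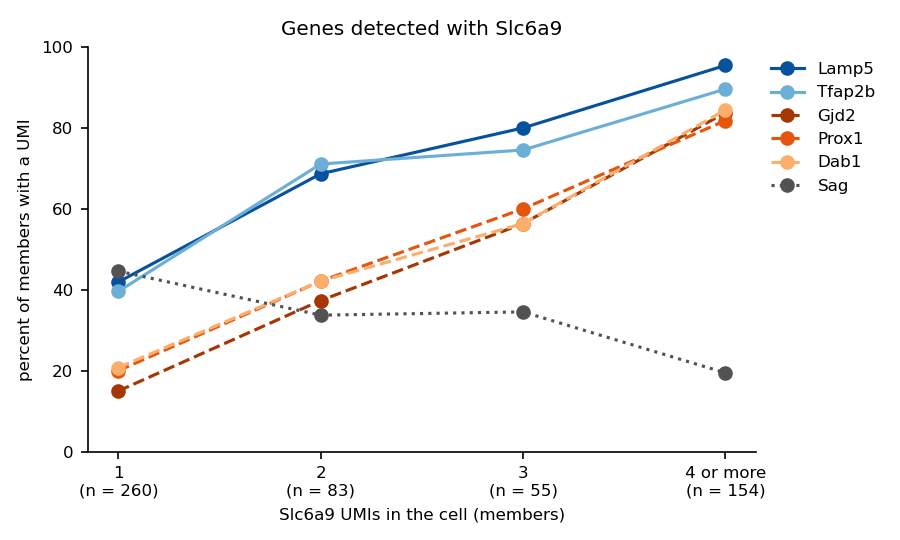
Percent of members with at least 1 UMI of amacrine and AII genes and of a rod gene, by the number of Slc6a9 UMIs in the cell (1, 2, 3, or 4 and more). Lamp5, Tfap2b, Gjd2, Prox1 and Dab1 were found in more of the members with more Slc6a9 UMIs, and the rod gene Sag in fewer. Slc6a9 and the amacrine genes are part of the rule, so the curves describe the choice of cells.

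A single Slc6a9 UMI is not particular to these cells. Slc6a9 was detected in 7.93% of 11469 cells with at least 3 rod markers (median 1191 UMIs), in 3.66% of 1228 cells with Müller glia markers (median 2563 UMIs) and in 2.59% of 2629 cells with bipolar markers (median 2687 UMIs), none of which should express it at the level of an amacrine cell. Among the members, 226 (40.9%) also held at least 3 rod markers, at least 2 bipolar markers or at least 2 Müller glia markers; 173 met the first condition, 74 the second and 57 the third. The other 326 members are called unmixed here, so that their low share of cells with Sag, 10.7% against 69.9%, follows from the split. The label was set against AII genes and a transporter that neither the rule nor the split used. Gjd2 was found in 54.9% of the unmixed members, 22.6% of the mixed-marker members and 18.4% of 1211 GABAergic amacrine cells, chosen by Gad1 or Gad2, and Prox1 in 56.7%, 27.0% and 7.60%. Slc32a1, the vesicular transporter of inhibitory neurons, was found in 49.1% of the unmixed members, 17.7% of the mixed-marker members and 61.5% of the GABAergic cells. All 3 genes were thus rarer in the mixed-marker members than in the unmixed ones, although the median depth was 3974 UMIs in the former and 2986 in the latter. In the bipolar-marked cells outside the members, Gjd2 was found in 23.2%, Prox1 in 52.8% and Slc32a1 in 1.33%. In the Müller-marked cells these were 1.63%, 22.6% and 1.95%. Prox1 therefore did not set the unmixed members apart from bipolar-marked cells, while Slc32a1 was rare in both sets. The results are given with and without the mixed-marker members where it matters.

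The mixed-marker members were unevenly spread. They made up 12.5%, 3.33% and 21.1% of the members in the control mice, 30%, 25% and 27.3% in the STZ mice, 71% and 61.3% in the ω-3 mice, and 33.3%, 44.7% and 54.1% in the ω-6 mice. The lowest STZ-treated mouse stood above the highest control mouse, and both ω-3 mice stood above all ω-6 mice. The summed level of the 8 rod markers in the members was 154 to 427 CPM in control mice, 1141 to 3241 in STZ mice, 10053 and 11236 in ω-3 mice and 9342 to 12274 in ω-6 mice. Here and below, CPM are the UMIs of a gene in the members of a mouse, scaled to a sum of 1000000 over all genes. The cells on either side of the rule differed as follows. Of 2513 cells that met every condition but had no Slc6a9 UMI, 10.1% had Lamp5 and 10.8% Gjd2. Among 41 cells kept out by a single Gad1 or Gad2 UMI, Lamp5 was found in 73.2%, but among 105 with 2 or more such UMIs in 17.1%. Among 173 members with 1 of the 6 excluding genes Lamp5 was found in 74.6%, and among 120 cells kept out because they had 2 of them in 51.7%.

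Compared with GABAergic amacrine cells, the members had higher levels of Kcnh1, Drd2, Adrb1 and Drd4, which had the largest ratios beside Ccdc24, and of the AII genes Prox1, Gjd2 and Dab1. The GABAergic cells were 1211 cells chosen by the same rule, but with no Slc6a9 UMI and at least 1 UMI of Gad1 or Gad2. Both classes were chosen by their genes, so the comparison is a description without a test, over 2431 genes at 100 CPM or more in either class. In all 11 mice, 149 of these genes were higher and 278 lower in the members. Drd2, the dopamine D2 receptor, averaged 166 CPM in the members and 2.37 in the GABAergic cells, and Drd4, the dopamine D4 receptor, 127 and 4.93. Adrb1, the beta-1 adrenergic receptor, averaged 112 against 3.64, and the potassium channel gene Kcnh1 148 against 0.543. Prox1, a homeobox factor present in AII cells, averaged 558 against 52.9, Gjd2 672 against 86.4, Dab1, an adaptor of reelin signaling that marks AII cells, 405 against 59.1, and Car2, carbonic anhydrase 2, 1779 against 267. Tgfb2, a transforming growth factor ligand, averaged 407 against 52.7, and Neurod4, a basic helix-loop-helix factor of retinal precursors, 184 against 23.6. In the cells outside both classes Tgfb2 averaged 245 CPM and Neurod4 201, so Neurod4 was not higher in the members than in those cells. The other genes named so far were lower there than in the members. The ranges of the 11 mice did not overlap between the classes for any gene named so far in this comparison, with Drd2 at 95.4 to 309 against 0 to 8.25 and Gjd2 at 394 to 1088 against 39.3 to 150 CPM.

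Ccdc24 was also among the 15 highest ratios, at 862 against 4.85 CPM, and was detected in 98.6% of the members. It lies on the minus strand at chr4:117866524-117872557, inside the span of Slc6a9, and whether the counting used strand is not given in the sources used here. Its UMIs therefore cannot be told apart from those of Slc6a9, and it is listed as uncertain. The other genes among the 15 were Rnf152, Rnf182, BC034090 and Ccsap.

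The 10 genes at the other end included secreted and synaptic proteins and a transcription regulator. Cartpt, the precursor of CART peptides, averaged 4.37 CPM in the members and 1086 in the GABAergic cells. Npy, neuropeptide Y, averaged 14.4 against 481, and in the members it was at 140 CPM in STZ mouse 3 and at 0 to 8.84 in the other 10 mice. C1ql2 and C1ql1, secreted proteins of the C1q family that act at synapses, averaged 0.973 against 356 and 17.6 against 625. Cbln2, a secreted synapse organizer, averaged 2.32 against 325, Kcnip1, a potassium channel subunit, 6.57 against 259, and Rims1, an active zone protein, 24.6 against 834. Id4, an inhibitor of basic helix-loop-helix factors, averaged 19 CPM against 560, and Tnc, the matrix protein tenascin C, 3.80 against 129. Filip1l had no UMI in any member and 660 UMIs in the GABAergic cells.

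**Figure D3:**
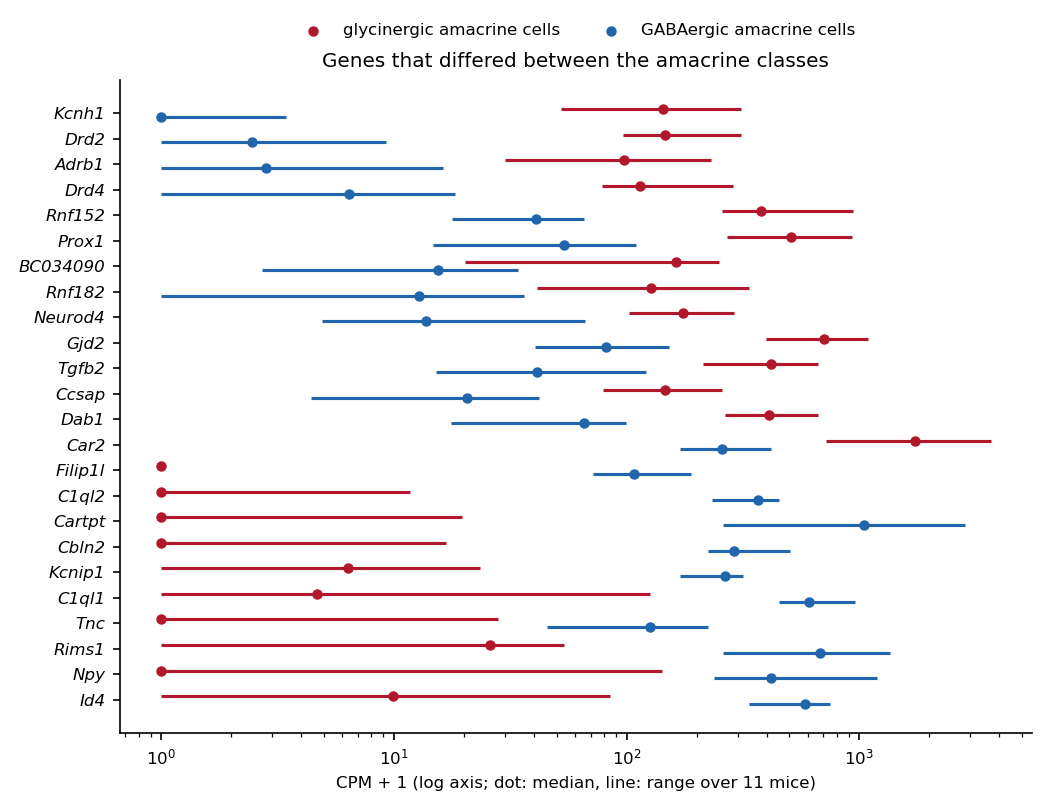
Level of the genes with the largest and smallest ratios between glycinergic and GABAergic amacrine cells, as CPM + 1 on a log axis, with a dot at the median and a line over the range of the 11 mice. The ranges of the classes overlapped for BC034090 alone among the genes shown, which were chosen for their ratio, and Drd2, Drd4, Adrb1 and Kcnh1 were at or near 0 in the GABAergic cells.

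The AII genes occurred in the same cells. At least 2 of Gjd2, Prox1, Dab1, Nfia and Calb2 were found in 297 of the 552 members (53.8%), and all 5 in 117. The share with at least 2 was 21.6% in the GABAergic cells, with 13.1% to 35.8% between mice. After thinning every cell to 1500 UMIs, which left out 49 members and 111 GABAergic cells, it was 44.9% in the members, 62.6% in the unmixed members and 9.82% in the GABAergic cells. Of the 230 members with Gjd2, 187 (81.3%) also had Prox1, 74.8% Dab1 and 73.9% Calb2. Some of these genes were also common outside amacrine cells. Bipolar-marked cells had Prox1 in 52.8% and Nfia in 32.2%, and Müller-marked cells had Dab1 in 28.7% and Nfia in 42.0%. Calb2 was found in 1.29% and 1.47% of these sets. Slc17a8, the vesicular glutamate transporter of the VG3 amacrine type, was found in 33 members and in 2.17% of those with Gjd2. By mouse, the share of members with at least 2 AII genes was 66.7%, 53.3% and 73.7% in control, 61.7%, 65.6% and 63.6% in STZ, 29% and 43.5% in ω-3, and 53%, 50.6% and 65.6% in ω-6 mice. Both ω-3 mice were the lowest of the 11 and also had the highest percentages of mixed-marker members. In ω-3 mouse 1 the share of the GABAergic cells, 29.9%, was slightly above that of the members, and in the other 10 mice it was below.

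Transmitter genes were measured at different depths of coverage. Slc32a1, the vesicular transporter that loads both glycine and GABA, was at 168, 144 and 111 CPM in control, 262, 274 and 229 in STZ, 66 and 172 in ω-3, and 128, 123 and 167 in ω-6 mice. In the GABAergic cells it was at 163 to 421. Slc6a5, the neuronal glycine transporter GlyT2, was at 10.7 to 56.1 CPM in the members, a range that overlapped the 7.09 to 34.0 of the GABAergic cells. Amt, a subunit of the glycine cleavage system, was at 214 to 491 in the members and 170 to 473 in the GABAergic cells. Gldc, another subunit of that system, which is strong in Müller glia, had no UMI in 5 of the 6 control and STZ mice and was at 5.35 to 139 in the diet groups.

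The first question was whether hyperglycemia changed how many of these cells were captured. The members made up 2.59%, 3.81% and 1.27% of the cells in control mice (mean 2.56% ± 1.27 SD, n = 3) and 2.94%, 2.29% and 1.90% in STZ mice (2.38% ± 0.525, n = 3). The groups overlapped, and the difference of -0.18 percentage points did not pass a two-sided exact permutation test (p = 0.9, where 3 mice against 3 allow no p below 0.1). The sign of this difference was not stable: among cells with at least 1 of the 5 amacrine genes it was 2.64 percentage points (exact p = 0.3), without control mouse 2 it was 0.445, and without STZ mouse 3 it was 0.0569. In the diet groups, the share was 2.89% and 2.42% in ω-3 mice (2.65% ± 0.329, n = 2) and 2.52%, 3.92% and 4.54% in ω-6 mice (3.66% ± 1.03, n = 3). These also overlapped, with a difference of 1.01 percentage points (two-sided exact permutation p = 0.3, where 3 mice against 2 allow no p below 0.2).

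The second question was what hyperglycemia changed inside the cells. UMIs were summed per mouse over the members and STZ mice were compared with control mice. In the members of STZ mice, immediate early genes, which neurons switch on within minutes of a stimulus, and the neuronal transcription factors Sox4, Sox11 and Prox1 were higher, and mitochondrial ribosomal RNA and nuclear genes of oxidative phosphorylation were lower. edgeR's quasi-likelihood test called 434 of 2416 genes at a Benjamini-Hochberg adjusted p under 0.05 (18%), of which 230 (9.52%) were higher and 204 (8.44%) lower in STZ mice. Without the mixed-marker members, 392 of 1655 genes were called (23.7%). Of the 434 genes, 331 could be tested there, all 331 kept their direction and 275 were called. For 38.1% of all tested genes the 3 mice of one group lay above the 3 of the other, which is the background for every such statement below. The control mice stood apart from all 8 STZ-treated mice in Fos, Sox4, Cox5a, Ndufb6 and mt-Rnr2, among others, so that treatment and any difference in preparation between these retinas cannot be told apart.

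Fos, an AP-1 transcription factor, was at 22.4, 38.5 and 0 CPM in the control mice and at 841, 539 and 1521 in the STZ mice. Every STZ mouse was far above every control mouse, and the log2 fold change was 5.28 ± 0.52 (SE; adjusted p = 4.88e-07). In the unmixed members alone it was 5.00, and in the GABAergic cells of the same mice 3.90. Nr4a1, an orphan nuclear receptor induced by activity, was at 44.8, 0 and 0 against 661, 690 and 598 (log2 fold change 5.24 ± 0.51, adjusted p = 4.88e-07), with 5.13 in the unmixed members and 6.21 in the GABAergic cells. Dusp1, a phosphatase that switches off MAP kinases, had 1 UMI in the control mice and 121 in the STZ mice, at 11.2, 0 and 0 against 299, 221 and 354 CPM. The ratio of the summed levels was 75.9, with an exact 95% counting interval of 13.4 to 3023 (adjusted p = 9.80e-06). Intervals on such ratios cover counting error only.

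Other members of the group behaved alike. Klf6, a zinc finger factor, was at 11.2, 0 and 0 in control and 181, 177 and 244 CPM in STZ mice (ratio 51.4, interval 8.98 to 2057, adjusted p = 0.000141). Jun, the partner of Fos, was at 11.2, 9.62 and 0 against 125, 124 and 672 (ratio 39.2, interval 10.6 to 327, adjusted p = 0.000649). Nr4a2 had no UMI in the control mice and 56 in the STZ mice, and was at least 11.7-fold higher when 3 UMIs over the control group are taken as the floor (adjusted p = 0.000427). Nr4a3 was at 0, 0 and 15.8 against 118, 168 and 140 (ratio 35.8, interval 6.17 to 1437, adjusted p = 0.000668). Jund (1.60 ± 0.35, adjusted p = 0.00452), Junb and Btg1 rose less. The calls of Junb (1.70) and Btg1 (1.21) were lost without control mouse 2 or 3, and without STZ mouse 3 for Junb (adjusted p up to 0.125) and STZ mouse 1 for Btg1 (adjusted p up to 0.135). Klf6, Jun, Nr4a2 and Junb did not pass the filter on low counts in the unmixed members. Mcl1, a survival gene outside the list, also rose (ratio 13.8, interval 4.52 to 68.6, adjusted p = 0.00296), and its call was lost without STZ mouse 3 (adjusted p = 0.0566).

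Of the 35 immediate early genes with a row in the table, 10 entered the test, all through their level in the STZ mice, so the count of calls among them says nothing about the list. Summed over all 35, the level was 873, 577 and 284 CPM in control mice, 4176, 4633 and 7832 in STZ mice, 5975 and 4781 in ω-3 mice, and 4382, 7324 and 6741 in ω-6 mice. The lowest of the 8 STZ-treated mice was thus at 4176 and the highest control mouse at 873. Without the mixed-marker members the sums were 265 to 917 in control and 3713 to 5083 in STZ mice, and in the GABAergic cells 533 to 844 and 3427 to 5673.

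**Figure D4:**
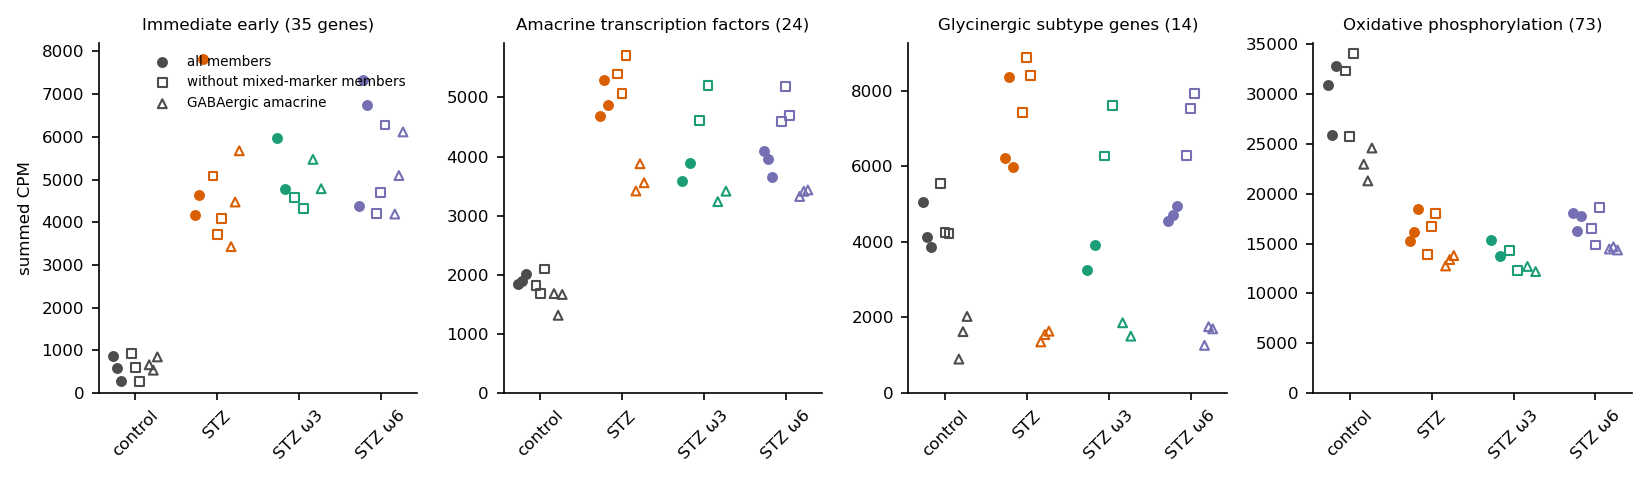
Summed level of 4 gene lists in each of the 11 mice, in CPM on a linear axis from 0, with circles for all members, squares for the unmixed members and triangles for GABAergic amacrine cells. In all 3 sets of cells the immediate early genes and amacrine transcription factors were lowest in the 3 control mice, and the nuclear genes of oxidative phosphorylation highest there.

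The promoters of the 3 genes with the smallest adjusted p among the immediate early genes are shown because the genes moved together. Each runs 5′ to 3′ on the strand of the gene, from 250 bases before to 50 bases after the RefSeq start (GRCm38.p6): Fos on chr12:85473640-85473939, plus strand, Nr4a1 on chr15:101266596-101266895, plus strand, and Dusp1 on chr17:26508423-26508722, minus strand. Capitals mark TGACG or, for the other strand, CGTCA, which is the core of the cAMP response element, and in Dusp1 also the full element TGACGTCA.
Fos: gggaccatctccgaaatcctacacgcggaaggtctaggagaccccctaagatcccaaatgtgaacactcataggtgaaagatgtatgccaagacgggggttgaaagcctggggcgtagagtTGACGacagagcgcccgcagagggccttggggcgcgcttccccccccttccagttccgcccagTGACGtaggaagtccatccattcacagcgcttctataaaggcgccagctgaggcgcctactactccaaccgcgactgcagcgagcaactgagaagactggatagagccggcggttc
Nr4a1: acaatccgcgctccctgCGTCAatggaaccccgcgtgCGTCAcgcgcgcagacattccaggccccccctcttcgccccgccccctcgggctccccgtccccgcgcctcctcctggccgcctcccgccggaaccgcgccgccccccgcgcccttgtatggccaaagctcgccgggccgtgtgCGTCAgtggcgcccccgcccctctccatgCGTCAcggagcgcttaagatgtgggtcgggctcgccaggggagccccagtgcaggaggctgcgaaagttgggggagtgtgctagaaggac
Dusp1: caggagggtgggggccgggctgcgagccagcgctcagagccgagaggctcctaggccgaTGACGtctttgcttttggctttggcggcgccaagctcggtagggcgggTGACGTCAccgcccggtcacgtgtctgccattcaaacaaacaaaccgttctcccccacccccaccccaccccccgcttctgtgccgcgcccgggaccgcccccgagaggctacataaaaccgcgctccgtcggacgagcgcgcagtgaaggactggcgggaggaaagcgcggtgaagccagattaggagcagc

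In the Fos promoter the core lies 124 and 61 bases before the start, in Nr4a1 at 228, 208, 64 and 35 bases and in Dusp1 at 186, 138 and 135 bases, where the last pair are both strands of the 1 full element. The 4 genes of the list with at least 3 cores were Dusp1, Nr4a1, Nr4a2 and Nr4a3. Among the 29 list genes with a promoter in the RefSeq table, 20 (69%) held the core on either strand, against 6228 of 27025 genes (23%), and 4 (13.8%) held at least 3, against 316 genes (1.17%). Of the 10 tested genes of the list, 7 held it. The full element was found in 1.79% of 32851 promoters, TATAAA in 13.6% and the CArG box, searched as CCWWWWWWGG with A or T at each W, in 1.63%. These matches are a description of letters in the window and were not tested.

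Several transcription factors of the amacrine lineage were higher in STZ mice. Of 24 list genes with a row and outside the rule, 10 were tested and 8 of them were called higher, where 9.52% of all tested genes were. Neurod1, Nr4a2, Sox4, Sox11 and Zeb2 met the filter on low counts through the STZ mice alone, so that the count says nothing about the list. Nr4a2 of this list is also an immediate early gene. Sox4, an SRY-box factor of differentiating neurons, was at 67.1, 106 and 63.2 CPM in control mice and 817, 796 and 664 in STZ mice (3.16 ± 0.31, adjusted p = 4.88e-07). The lowest STZ mouse lay far above the highest control mouse, and the log2 fold change was 3.30 in unmixed members and 2.27 in GABAergic cells. Sox11, its close relative, was at 11.2, 67.3 and 15.8 against 249, 212 and 140 (2.46 ± 0.55, adjusted p = 0.00452).

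Prox1 (chr1:190118035-190170714, minus strand) was at 269, 394 and 284 CPM in control and at 704, 858 and 930 in STZ mice. Its log2 fold change was 1.32 ± 0.25 (adjusted p = 0.00125), 1.58 in the unmixed members and -0.19 in the GABAergic cells (adjusted p = 0.83). The difference between the classes itself, 1.31 ± 0.53, did not pass (adjusted p = 0.64). Nfia, a nuclear factor of AII cells, rose by 1.10 ± 0.26 (adjusted p = 0.00671), and Tcf4, a basic helix-loop-helix factor, by 1.06 ± 0.26 (adjusted p = 0.00857). The calls of both were lost without control mouse 1 or control mouse 2, with adjusted p between 0.0525 and 0.0767. Neurod1 (1.65) and Lmo4 (1.18) were called as well, but lost the call without control mouse 2 (adjusted p = 0.123 and 0.149), Neurod1 also without control mouse 1 or STZ mouse 1 and Lmo4 without STZ mouse 2 or 3, and the 2 groups overlapped for Neurod1.

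Among the glycinergic subtype genes, 7 of 14 were tested and 4 were higher by edgeR, namely Prox1, Nfia, Tcf4 and Gjd2, with a list median of 0.73. Over all tested genes 9.52% were higher. DESeq2 called 3 of the 7, and 3 of the 4 edgeR calls were lost without at least 1 mouse. In the unmixed members 5 of 7 were higher, where 12.4% of all tested genes were. Gjd2 (chr2:114009601-114013619, minus strand) was at 705, 394 and 506 in control and 860, 1088 and 812 CPM in STZ mice (0.73 ± 0.25, adjusted p = 0.0444). This call was lost without any 1 of the 6 mice, with adjusted p of 0.0503 to 0.28. Car2 was at 2439, 1818 and 1549 against 2026, 3661 and 1735 (0.28 ± 0.28, adjusted p = 0.477), Dab1 at 302, 346 and 458 against 661, 460 and 436 (0.47 ± 0.27, adjusted p = 0.224) and Calb2, calretinin, at 604, 539 and 300 against 492, 477 and 251 (-0.32 ± 0.29, adjusted p = 0.449). All 3 overlapped between the groups. Dab1 was called in the unmixed members, at 0.82 (adjusted p = 0.0241).

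Genes of the synapse were tested where their counts allowed. Of 28 vesicle release genes, 16 were tested and 5 were higher by edgeR, 1 by DESeq2 and 7 of 14 in the unmixed members (median 0.29). Sv2a, a synaptic vesicle glycoprotein, was at 213, 241 and 269 CPM in control and 723, 867 and 620 in STZ mice (1.56 ± 0.26, adjusted p = 0.000416). Syt4, Syt11 and Napb also rose, by 0.80 to 1.09, and Syt4 and Napb lost the call without any 1 of the 6 mice, Syt11 without control mouse 2 or 3 or STZ mouse 2 or 3 (adjusted p of 0.0805 to 0.167). Of 36 adhesion genes, 18 were tested and 6 were higher by edgeR and 3 by DESeq2 (median 0.54), all 6 losing the call without at least 1 mouse. These counts stand beside 9.52% higher over all genes, or 12.4% in the unmixed members. In the vesicle release list 2 genes and in the adhesion list 6 genes met the filter through the STZ mice alone. Among the called adhesion genes were the presynaptic neurexins Nrxn2 (1.32 ± 0.36, adjusted p = 0.0155) and Nrxn3 (0.87 ± 0.24, adjusted p = 0.0187). Another was Dscaml1 (1.57 ± 0.41, adjusted p = 0.0128), an adhesion protein for the spacing of amacrine cells. Without control mouse 2 the calls of these 3 were lost, with adjusted p of 0.105, 0.114 and 0.0846, as were those of Nrxn2 without control mouse 1 or STZ mouse 1, Nrxn3 without control mouse 1 or STZ mouse 2, and Dscaml1 without control mouse 3. Kcnma1, the BK potassium channel, was at 213, 231 and 474 against 767, 981 and 487 (1.28 ± 0.31, adjusted p = 0.00814), and lost its call without control mouse 1 (adjusted p = 0.0766) or control mouse 2 (adjusted p = 0.0887). Gria4, a subunit of AMPA receptors, rose by 1.53 ± 0.48 (adjusted p = 0.0311), a call lost without control mouse 1 or 3 or STZ mouse 1 or 3 (adjusted p up to 0.157).

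Tgfb2, one of the genes that set the members apart from GABAergic cells, was at 213, 269 and 269 in control and 542, 663 and 421 CPM in STZ mice (1.06 ± 0.27, adjusted p = 0.0124), and lost its call without control mouse 1 (adjusted p = 0.0804), control mouse 2 (0.053) or STZ mouse 2 (0.0519). Meg3, a nuclear long noncoding RNA of neurons, was at 627, 394 and 316 against 1602, 1919 and 997 (1.68 ± 0.28, adjusted p = 0.000416). Malat1, another nuclear RNA, was at 973, 972 and 1154 against 1103, 964 and 613 (-0.25 ± 0.24, adjusted p = 0.466).

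Glycine transmission gave no call with edgeR or DESeq2 among 5 of 16 genes tested (2 at an unadjusted p under 0.05, median log2 fold change -0.46). Slc32a1 had the lowest adjusted p of them (0.78 ± 0.34, adjusted p = 0.106), and in the unmixed members it was called higher by edgeR, at 1.18 (adjusted p = 0.0203), as 1 of 2 genes of the list tested there. Summed over the 16 genes with a row outside the rule, the level was 940, 1203 and 1201 CPM in control and 1446, 1362 and 1277 in STZ mice. Of 15 GABA-A receptor subunits 4 were tested and none was called by edgeR or DESeq2 (1 at an unadjusted p under 0.05). Of the glycolysis genes, 14 were tested, with no call by edgeR, 3 at an unadjusted p under 0.05 and 1 call by DESeq2. In the unmixed members Ldhb, a lactate dehydrogenase subunit, was called lower by edgeR (-1.26 ± 0.42, adjusted p = 0.0359).

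Genes of mitochondrial respiration were lower in STZ mice. Of 73 nuclear genes of oxidative phosphorylation, 69 were tested, 30 were lower, where 8.44% of all tested genes were, none was higher, and the median log2 fold change was -0.82 against 0.01 over all genes tested. DESeq2 called 18 of them, and 15 of the 30 lost the call without at least 1 mouse. The filter was met through the control mice alone by 16 of the 69, and by each group on its own by 50. Without the mixed-marker members 31 of 66 were lower, where 11.2% of all tested genes were, and the median was -0.88. Summed over the 73 genes, the level was 30878, 25899 and 32820 CPM in control, 15234, 16190 and 18483 in STZ, 15364 and 13792 in ω-3, and 18117, 16212 and 17797 in ω-6 mice. The 8 STZ-treated mice thus lay below the 3 control mice. Cox5a, a subunit of cytochrome c oxidase, was at 705, 673 and 822 against 249, 230 and 273 (-1.58 ± 0.25, adjusted p = 0.000313). Ndufb6, a subunit of complex I, was at 302, 202 and 316 against 37.4, 53.1 and 66.4 (-2.41 ± 0.42, adjusted p = 0.000605), and Ndufa13, another, at 313, 298 and 332 against 87.3, 70.7 and 81.2 (adjusted p = 0.00072). In the GABAergic cells the log2 fold changes of these 3 were -1.31, -1.73 and -1.56. The difference between the classes was -0.38 for Cox5a (adjusted p = 0.90).

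Both mitochondrial ribosomal RNAs fell as well. mt-Rnr2, the 16S ribosomal RNA, was at 28249, 23051 and 37008 CPM in control and at 8639, 4430 and 4761 in STZ mice (-2.35 ± 0.42, adjusted p = 0.000813), and mt-Rnr1, the 12S ribosomal RNA, fell by 2.26 on the log2 scale (adjusted p = 0.000141). Of 13 protein genes of the mitochondrial genome 3 were called lower by edgeR, 5 by DESeq2 and 1 in the unmixed members (median -0.72). By edgeR, 8.44% of all tested genes were lower, and 11.2% in the unmixed members, a share that the 1 unmixed call does not exceed. Of the 3, mt-Atp8 was at 526, 529 and 585 against 312, 88.4 and 155 (-1.54 ± 0.34, adjusted p = 0.0042). The calls of the other 2, mt-Nd2 and mt-Nd3, were lost without any 1 mouse but STZ mouse 1 (adjusted p up to 0.173) and in the unmixed members (adjusted p = 0.0575 and 0.0539). Hspa8, a constitutive chaperone, was the 1 called gene of 7 tested heat shock genes (-0.79 ± 0.25, adjusted p = 0.0327), beside 8.44% lower over all tested genes, and DESeq2 called none of the 7. Hspa8 lost its call without control mouse 1 or 3 or STZ mouse 2 or 3 (adjusted p up to 0.155).

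Among called genes with at least 10 UMIs per mouse on average and no overlap between the groups, the largest decrease belonged to no list. Gm37357, a predicted transcript at chr1:161811045-161814167 on the minus strand, was at 1645, 1905 and 1738 in control and 268, 124 and 59.1 CPM in STZ mice (-3.54 ± 0.33, adjusted p = 4.88e-07), with -3.60 in the GABAergic cells. Gm10123, a processed pseudogene, fell by 3.21 on the log2 scale (adjusted p = 0.000527), and is uncertain because its reads may be shared with near-identical copies. Rn7sk, a gene of the noncoding RNA list and the 7SK small nuclear RNA that restrains transcription elongation, was at 112, 96.2 and 237 in control and had 2 UMIs in the STZ mice, a ratio of 0.0359 (interval 0.00418 to 0.14, adjusted p = 0.000739). Snrpd1, a core protein of the spliceosome, fell by 1.93 on the log2 scale (adjusted p = 0.00815). Ndufb6, Ndufa13, mt-Rnr2 and mt-Rnr1, given above, were also among the 10 largest decreases under these 2 conditions. Ccz1, Mpv17l and Dnajc12 completed them, at -1.96, -1.84 and -1.80. They lost their calls without STZ mouse 3 (adjusted p = 0.059, 0.0618 and 0.0574), and without control mouse 2 (Ccz1, 0.105, and Dnajc12, 0.192) or control mouse 1 (Mpv17l, 0.0737).

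Rod genes were among the 10 largest increases under the same conditions on UMIs and overlap. Rbp3, a retinoid carrier released by photoreceptors, had 1 UMI in control mice (ratio 48.9, interval 8.53 to 1957, adjusted p = 0.000668), and Prph2, a protein of photoreceptor disks, had 2 (ratio 35.4, interval 9.59 to 296, adjusted p = 0.000217). Neither passed the filter on low counts once the mixed-marker members, which the rod markers help to define, were left out. The part of the mixed-marker members in these increases was not tested. Gas1, a membrane receptor of hedgehog signaling, was at 11.2, 9.62 and 31.6 CPM in control mice against 175, 177 and 428 in STZ mice (3.91 ± 0.63, adjusted p = 0.000399), and did not pass that filter either.

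**Figure D5:**
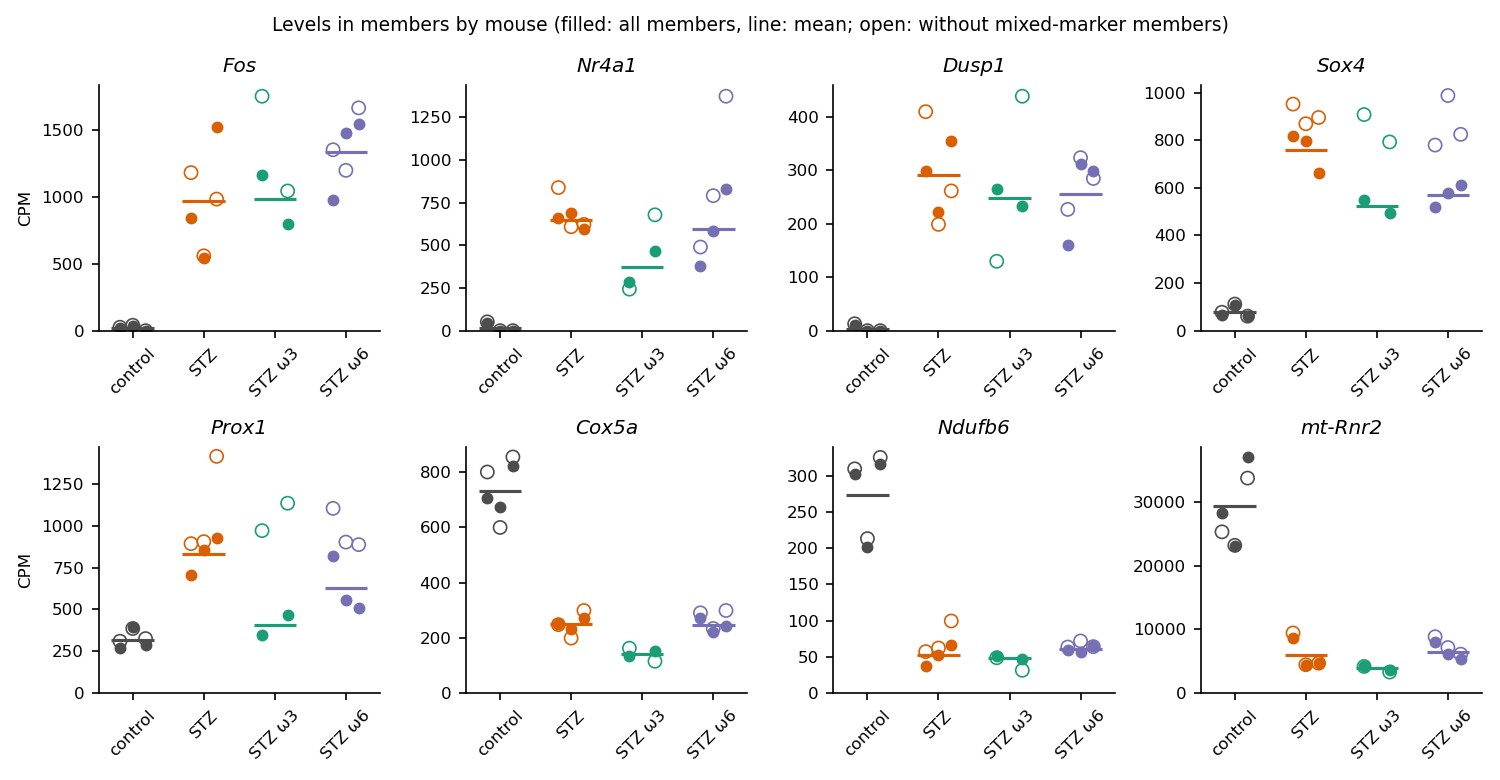
Level of genes compared between control and STZ mice in the glycinergic amacrine cells, in CPM on a linear axis from 0, with 1 filled point per mouse for all members, 1 open point per mouse for the unmixed members and a line at the mean of the filled points. The ω-3 and ω-6 mice lay with the STZ mice rather than with the control mice for Fos, Sox4, Cox5a, Ndufb6 and mt-Rnr2.

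The third question was whether the response to STZ was the same in glycinergic and GABAergic amacrine cells. A term for class by treatment, with the mouse as a block, called 11 of 6901 genes (0.159%), all with the larger STZ value in the members, and 430 (6.23%) had an unadjusted p under 0.05. The 11 were Sparc, Col9a1, Apoe, Rlbp1, Dapl1, Slc1a3, Glul, Dbi, Mfge8, Rdh10 and Map1b. Apoe, Rlbp1, Slc1a3 and Glul are Müller glia markers, and the summed level of the Müller glia markers in the members was 48.1 to 134 CPM in control mice and 131, 3227 and 2148 in STZ mice. In the GABAergic cells this sum was 863, 1086 and 1850 CPM in control mice and 799, 917 and 944 in STZ mice. Mixed-marker cells were left out of the members only, and never of the GABAergic cells. Without the mixed-marker members no gene was called by edgeR, with 373 of 6372 at an unadjusted p under 0.05, and DESeq2 called none of the genes with all members (170 at an unadjusted p under 0.05). Among the immediate early genes and among the nuclear genes of oxidative phosphorylation no gene passed this test with edgeR or DESeq2 (5 of 23 and 1 of 73 at an unadjusted p under 0.05). In simulated counts the edgeR test recovered 4% of 2-fold and 35.4% of 4-fold differences. The lack of calls therefore does not show that the 2 classes responded alike. Taken side by side, 431 of the genes called for STZ in the members were also tested in the GABAergic cells. There 323 of them were called by edgeR, all in the same direction. Over all 7749 genes tested in the GABAergic cells, 12.4% were called higher and 14.9% lower. For Fos the difference between the classes was 1.19 ± 0.65 (adjusted p = 0.84).

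Map1b, a microtubule-associated protein of growing axons, was the 1 called gene that lies on an adhesion and axon list, and is named after its values were seen. It was at 55.9, 28.9 and 47.4 CPM in control and 324, 124 and 170 in STZ mice in the members, with a log2 fold change of 2.22 there and -0.15 in the GABAergic cells. The difference was 2.26 ± 0.48 (adjusted p = 0.0287). It was lost without control mouse 2 (adjusted p = 0.101), control mouse 3 (0.133) or STZ mouse 1 (0.325), and was 1.53 in the unmixed members (adjusted p = 0.78).

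The last question was whether the diets differed within STZ-treated mice. Comparing ω-6 with ω-3 mice, edgeR called 4 of 6866 genes (0.0583%), 3 of them higher (0.0437%) and 1 lower (0.0146%) in ω-6 mice, while 507 (7.38%) had an unadjusted p under 0.05. For 24.4% of the genes the 2 ω-3 mice lay outside the range of the 3 ω-6 mice on one side. In simulated counts the edgeR test of the diets recovered 17% of 2-fold and 69.2% of 4-fold changes, so smaller differences could be missed. Opn1sw, the short-wave cone opsin, was at 844 and 1001 CPM in ω-3 and at 235, 266 and 339 in ω-6 mice (-1.66 ± 0.21, adjusted p = 0.00175). It had no UMI in the control mice, and the cone marker sums in the members were 1808 and 1963 in ω-3 and 636 to 1027 in ω-6 mice. Of its 871 UMIs over all members, 6 were in unmixed members. In the unmixed members alone it was at 0 and 0 CPM in ω-3 and at 0, 29.9 and 0 in ω-6 mice, and did not pass the filter on low counts.

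The 3 genes that were higher in ω-6 mice rested on a handful of cells. Igf2, an insulin-like growth factor, was at 11 and 3.58 CPM in ω-3 and 187, 311 and 155 in ω-6 mice (4.89 ± 0.55, adjusted p = 0.00122). Its UMIs came from 8 members in all, and a single cell held 35 of 35, 122 of 126 and 52 of 52 in the 3 ω-6 mice, none of them an unmixed member. AC013548.1 (ratio 29.7, interval 9.98 to 146, adjusted p = 0.00175) had its ω-6 UMIs in a single cell in 2 of the 3 mice and in 2 cells in ω-6 mouse 2. Pdgfra, a receptor that marks astrocytes and oligodendrocyte precursors (ratio 26.8, interval 7.2 to 224, adjusted p = 0.037), lost its call without ω-3 mouse 1 (adjusted p = 0.0787), ω-6 mouse 1 (0.107) or ω-6 mouse 2 (0.347). Members with at least 2 of Igf2, Pdgfra, Gfap and S100b numbered 1, 2 and 1 in the ω-6 mice and 0 in every other mouse. Their part in these calls was not tested.

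None of the 4 genes belongs to a gene list of the glycinergic cells. Gjd2 was at 411 and 401 in ω-3 and 845, 644 and 726 CPM in ω-6 mice, where the groups did not overlap, but the log2 fold change of 0.90 ± 0.20 did not pass with edgeR (adjusted p = 0.245) and was 0.37 in the unmixed members (adjusted p = 0.712). It passed with DESeq2 (adjusted p = 0.0481) and without the filter on low counts (0.0357), 2 of 15 alternatives. Prox1 was at 345 and 468 against 819, 557 and 509 (0.65 ± 0.24, adjusted p = 0.566), with -0.12 in the unmixed members. Fos was at 1163 and 797 against 974, 1475 and 1545 (0.49 ± 0.22, adjusted p = 0.66). mt-Rnr2 was at 4192 and 3626 against 8063, 6059 and 5309 (0.77 ± 0.16, adjusted p = 0.158), which passed with DESeq2 (adjusted p = 0.00975). It was the 1 gene of 2985 (0.0335%) called without the mixed-marker members, at 1.00 (adjusted p = 0.0463). Of the nuclear genes of oxidative phosphorylation, all 73 were tested and 66 had the higher sign in ω-6 mice (median 0.30, against 0.01 over all genes tested), but none was called by edgeR or DESeq2 and 6 had an unadjusted p under 0.05. Of 13 protein genes of the mitochondrial genome, 12 had the higher sign in ω-6 mice (median 0.29), and all 13 in the unmixed members. By edgeR none was called and 8 had an unadjusted p under 0.05, where 7.38% of all genes did, and DESeq2 called 1. mt-Rnr1 did not pass with edgeR (adjusted p = 0.076) but passed with DESeq2 (1.01, adjusted p = 0.000503). Malat1 was at 1177 and 1967 against 680, 799 and 420 (-1.27 ± 0.25, adjusted p = 0.118), so the groups did not overlap, but the difference did not pass with edgeR, while with DESeq2 it did (adjusted p = 0.00181). The share of mixed-marker members was highest in both ω-3 mice, and apart from the values in unmixed members the part of the mixed cells was not tested.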

How the data were processed

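The study's authors dissociated retinas with papain, captured cells with inDrop, ran the reads through bcbio-nextgen (umis, Rapmap on GENCODE transcripts, barcodes of at least 500 reads), and deposited raw UMI counts per cell (25311 genes, 20067 cells; builds mm10 and GRCm38.p6 per the labels). The sample of each cell came from its column name, and no column was left unmapped.

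Cells with more than 300 genes were kept. Members were found by the stated rule, and their UMIs were summed per mouse, so that the mouse was the replicate. Sums were compared in edgeR 4.0.16 (R 4.3.3) by its quasi-likelihood test with TMM scaling, the filterByExpr filter on low counts and Benjamini-Hochberg adjusted p under 0.05; each fit held the groups it compared and no other. Class by treatment was 1 fit over glycinergic and GABAergic sums with the mouse as a block. Shares were compared by two-sided exact permutation over mice, with exact (Clopper-Pearson) 95% intervals. Alternatives used DESeq2 1.42.0, other scalings, filters, cells and samples. A group at 0 was compared at a floor of 3 UMIs over the group. The steps were tested on simulated counts with 200 changed genes. There edgeR recovered 31.8% of 2-fold changes for STZ against control, 17% for the diets and 4% for class by treatment. Of 4-fold changes it recovered 78.6%, 69.2% and 35.4%. Replicate numbers were not taken to pair the mice. Genes used by the rule were left out of all counts.

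The members, gene lists and tests were chosen with earlier results of these data known. Named genes are those of the lists, the called genes with the 10 highest and the 10 lowest log2 fold changes, provided that the groups did not overlap and the mean was at least 10 UMIs per mouse (5 for class by treatment, overlap allowed), and the 15 largest and 10 smallest ratios to GABAergic cells; Malat1, Tgfb2, Neurod4 and Map1b between classes were named after their values were seen, as were genes given only as not called. Coordinates came from GENCODE M21 of GRCm38, promoters from RefSeq. List genes without a row (Glra4, Ptf1a, Foxn4, Ccn1, Rn7s2, Nppb) were not analysed here, and some genes that the rule names are not reported here.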

Additional observations from a re-analysis of the deposited data

Results flagged for a closer look

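Of the 11 genes with a larger response to STZ in glycinergic than in GABAergic amacrine cells by the class by treatment term of edgeR, a test of the difference itself, the 5 with the largest differences and Map1b are given here. The log2 differences were 12.22 ± 1.15 for Sparc (adjusted p = 5.8e-08), 10.47 ± 1.80 for Col9a1 (adjusted p = 0.00298), 7.30 ± 0.80 for Apoe (adjusted p = 7.02e-07), 6.64 ± 1.39 for Rlbp1 (adjusted p = 0.0287), 6.63 ± 1.19 for Dapl1 (adjusted p = 0.00359) and 2.26 for Map1b, which is described above. The first 5 rest on 0 to 5 UMIs in the members of the control mice, so the fitted sizes depend on the prior count. Sparc, a matrix glycoprotein, had no UMI in control mice and was at 12.5, 628 and 709 CPM in STZ mice, at least 35.3-fold higher at a floor of 3 UMIs over the group. Col9a1, a collagen chain, was at 6.23, 327 and 1137 (at least 40.2-fold). Apoe, an apolipoprotein of glia, was at 0, 9.62 and 63.2 in control and 0, 460 and 591 in STZ mice. Few cells carried these levels. In STZ mouse 2 a single cell held 65 of 71 UMIs of Sparc, 31 of 37 of Col9a1 and 38 of 52 of Apoe. In STZ mouse 3 the largest in one cell was 36 of 96, 82 of 154 and 24 of 80. Rlbp1, a retinoid carrier of Müller glia, was at 6.23, 539 and 0 in STZ mice, and Dapl1 at 0, 106 and 731. STZ mouse 1 was at or near 0 for all 5 genes, as was its Müller glia marker sum of 131 CPM against 3227 and 2148 in the other STZ mice. In the GABAergic cells all 5 had negative log2 fold changes, from -3.60 for Apoe to -1.05 for Col9a1. The Müller glia marker sum of those cells was 863, 1086 and 1850 CPM in control and 799, 917 and 944 in STZ mice. Its part in these differences was not tested. Col9a1 lost its call without control mouse 3 (adjusted p = 0.0841) or STZ mouse 3 (0.0911), Dapl1 without control mouse 3 (0.0841) or STZ mouse 3 (0.419), and Rlbp1 without control mouse 3 (0.337) or STZ mouse 2 (1). Without the mixed-marker members none of the 6 was called.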

How the results depend on the processing

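For STZ against control, the 434 called genes became 216 with DESeq2, 256 with Slc6a9 at 2 UMIs or more, 251 with sums thinned to equal depth, 711 with all 4 groups in 1 fit and 289 with the replicate number as a block, and 259 to 349 without single mice. For ω-6 against ω-3, the 4 became 12 with DESeq2, 37 without the filter, 16 with the replicate block, 0 with Slc6a9 at 2 UMIs or more (edgeR; 240 at an unadjusted p under 0.05), 1 without mixed-marker members, 1 without the highest 5% of Scrublet scores, 2 with all 4 groups, and 3 to 10 without single mice (10 without ω-3 mouse 2, 7 without ω-6 mouse 3). For class by treatment, the 11 became 0 with DESeq2, 30 without the filter, 29 with the replicate block, 0 without mixed-marker members, 5 with thinned sums, and 2 to 25 without single mice (2 without control mouse 3, 25 without control mouse 1, 21 without STZ mouse 1). Other settings stayed within 1.5 times. The replicate numbers were not taken to pair the mice (r of the deviations -0.03, -0.02 and 0.05 for STZ and control, 0.02 and 0.15 for the diets). With so few mice these correlations cannot exclude a pairing. The block changed no difference in share beyond the spread of the mice. The share of members in STZ minus control mice changed sign to 2.64 percentage points of cells with an amacrine gene and to 0.0371 with more than 500 genes, and ran from -0.824 to 0.445 without single mice; ω-6 minus ω-3 stayed positive, from 0.565 to 1.58 without single mice, 0.468 with thinned cells and 3.59 of cells with an amacrine gene. Rlbp1 in the class by treatment test changed sign to -1.39 with Slc6a9 at 2 UMIs or more and to -1.29 without mixed-marker members. Among genes that did not pass, the sign changed for Car2 (-0.043 without STZ mouse 2, in a range up to 0.48 without single mice), Malat1 with Slc6a9 at 2 UMIs or more (0.025), Neurod4 with thinned sums (0.26), and Prox1 between the diets without mixed-marker members (-0.12). Of the 81 named and called genes of STZ against control, 38 were called in every alternative that tested them and 39 without any 1 mouse. The cause of these changes was not tested. Over all genes the median for STZ moved to 0.45 without the filter and to 0.12 with all 4 groups.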

Other observations

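Receptor and peptide genes not described above were sparse in the glycinergic amacrine cells. Gria2 and Gria3, subunits of AMPA receptors, were detected in 33.5% and 26.1% of the members, against 55% and 25.6% of the GABAergic cells. Gabra2, a GABA-A receptor subunit, was at 157, 231 and 158 CPM in control, 106, 133 and 133 in STZ, 84.4 and 257 in ω-3 and 203, 111 and 53.6 in ω-6 mice, and in every mouse the GABAergic cells were higher, at 136 to 462. Glra3, a glycine receptor subunit, was found in 7.07% of the members and 11.5% of the GABAergic cells, and Glra1 in 1.45% and 1.40%, both near the limit of detection.

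Penk, the precursor of enkephalins, was found in 3.44% of the members and varied from 0 to 134 CPM between mice within a group, with 134, 38.5 and 0 in the control mice. Sst was found in 0.181% of the members and Crh in none of the 552, which allows a share of cells with a UMI of up to 0.543% by counting error alone.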
